A study of Homo sapiens with 9 samples.

Results

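Lamin B2 is a B-type lamin, an intermediate filament protein encoded by LMNB2 on chromosome 19. The comparison described here sets the 3 arrays of DLD1 cells depleted of Lamin B2 (Lamin B2 Kd) against the 3 arrays of untreated DLD1 cells, which are 6 of the 9 arrays of the series. DLD1 is a near-diploid human colorectal cancer cell line. Lamin B2 Kd cells received 100 nM of siRNA against Lamin B2 for 48 h, the remaining 3 arrays came from cells given 100 nM of siRNA against Lamin A/C for 48 h, and the controls received no siRNA. Each array carried RNA of 1 of 3 biological replicates of its group. A single siRNA was used per lamin and no array holds cells given a control siRNA, so loss of Lamin B2, other effects of that siRNA and the transfection itself cannot be told apart. Lamin A/C Kd, which shares the transfection, was therefore used for a direct test of the difference between the knockdowns.

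Lamins form a meshwork under the inner nuclear membrane and bind chromatin, nuclear pore complexes and membrane proteins. B-type lamins stay farnesylated and membrane-bound and are made in nearly all cells, whereas A-type lamins come from LMNA and also occur in the nuclear interior. Lamin B2 has been linked to nuclear shape, neuronal migration and the mitotic spindle. In the colon epithelium, from which DLD1 cells derive, Wnt signalling maintains proliferating crypt cells, and DLD1 cells carry a truncated APC, which leaves that pathway active without added ligand.

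Levels are given as log2 signal of a probe relative to the median of its array, so that 1 unit is a doubling, and differences as Lamin B2 Kd minus control on the same log2 scale with the standard error (SE) of the fit. Values of replicates are in the order 1, 2 and 3. A gene rose or fell where its difference passed limma's moderated test at a Benjamini-Hochberg adjusted p under 0.05 over 33535 probes, and a gene with several probes was represented by the brightest unless stated. Of 22123 genes tested, 878 fell (3.97%) and 102 rose (0.461%). At a difference of at least 2-fold with adjusted p under 0.05 there were 182 falls (0.823%) and 41 rises (0.185%), and at 2-fold with unadjusted p under 0.05, the threshold of the study's methods, 268 falls (1.21%) and 182 rises (0.823%), or 2.03% of genes in all. The direction of these calls depended on the scaling, since a shift by the 75th percentile in place of the median turned 268 falls and 182 rises into 93 falls and 333 rises. The median difference of all genes was −0.14 with the median shift and 0.05 with the 75th percentile.

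Lamin B2 Kd replicate 3 stood apart. It was the only array on a second slide, so slide and culture cannot be told apart for it, and its differences from the other Lamin B2 Kd arrays had a log2 SD of 0.637 and 0.644, against 0.384 between replicates 1 and 2. It was lower for bright genes, with a median difference from control of −0.43 among the brightest of 5 equal bins of genes and 0.24 among the dimmest, against −0.06 and −0.02 for replicate 1. Without it the median difference of all genes was −0.07, and 901 genes fell (4.07%) and 139 rose (0.628%). The differences from control, and the list medians and counts that passed, were therefore also computed without replicate 3. Differences from Lamin A/C Kd by gene or by list, counts of genes without overlap, marker sums and folds given as a lower bound all include it. At 2-fold and unadjusted p under 0.05, 306 genes were called without it and 63.1% of them rose, against 450 and 40.4% with it. Leaving out control replicate 1, 2 or 3 gave 520, 444 and 445 such genes, but 45, 91 and 36 at 2-fold with adjusted p under 0.05, against 223 with all arrays and 148 without Lamin B2 Kd replicate 3. Of 58 genes named below that passed, 16, 22 and 13 did so without control replicate 1, 2 and 3. With the spread taken from the 6 arrays compared, rather than from all 9, 10 genes were 2-fold changed with adjusted p under 0.05.

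LMNB2 was depleted on every array. Its level was 5.44, 5.52 and 5.74 in controls and 3.1, 3.48 and 3.15 in Lamin B2 Kd, with no overlap. The difference of −2.32 (SE 0.14, adjusted p = 0.000507) left 20.0% of the control signal, and LMNB2 was 1.96 lower than in Lamin A/C Kd on the log2 scale by a direct test (−1.96, adjusted p = 0.000235). LMNB2 was the 1 gene of 24 in a list of lamina and inner nuclear membrane proteins that fell (4.17%, against 3.97% of all genes), and none rose. LMNA differed by −0.29 (adjusted p = 0.428) and by −0.00 without replicate 3. LMNB1, the other B-type lamin, had levels of 4.32, 5.32 and 3.46 in Lamin B2 Kd and of 4.83, 4.81 and 5.38 in controls, which overlapped (−0.64, adjusted p = 0.346). Emerin (EMD), a lamin-binding membrane protein, differed by −0.89 (adjusted p = 0.117) and by −0.58 without replicate 3. None of 51 importins, exportins, nuclear pore subunits and related genes passed, the largest difference being that of the importin IPO7 (0.88, adjusted p = 0.0588), which was 1.09 without replicate 3 (adjusted p = 0.0249).

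Next, the largest changes were examined. The genes named are the 12 largest falls and 12 largest rises of at least 2-fold with adjusted p under 0.05, above background on all 6 arrays, without overlap between the groups and still 2-fold without replicate 3. These conditions were met by 65 falling and 17 rising genes. All 12 falls and 6 of the 12 rises also passed without replicate 3. Because the rule required separated groups and a 2-fold change, the sizes below describe the chosen genes.

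**Figure D1:**
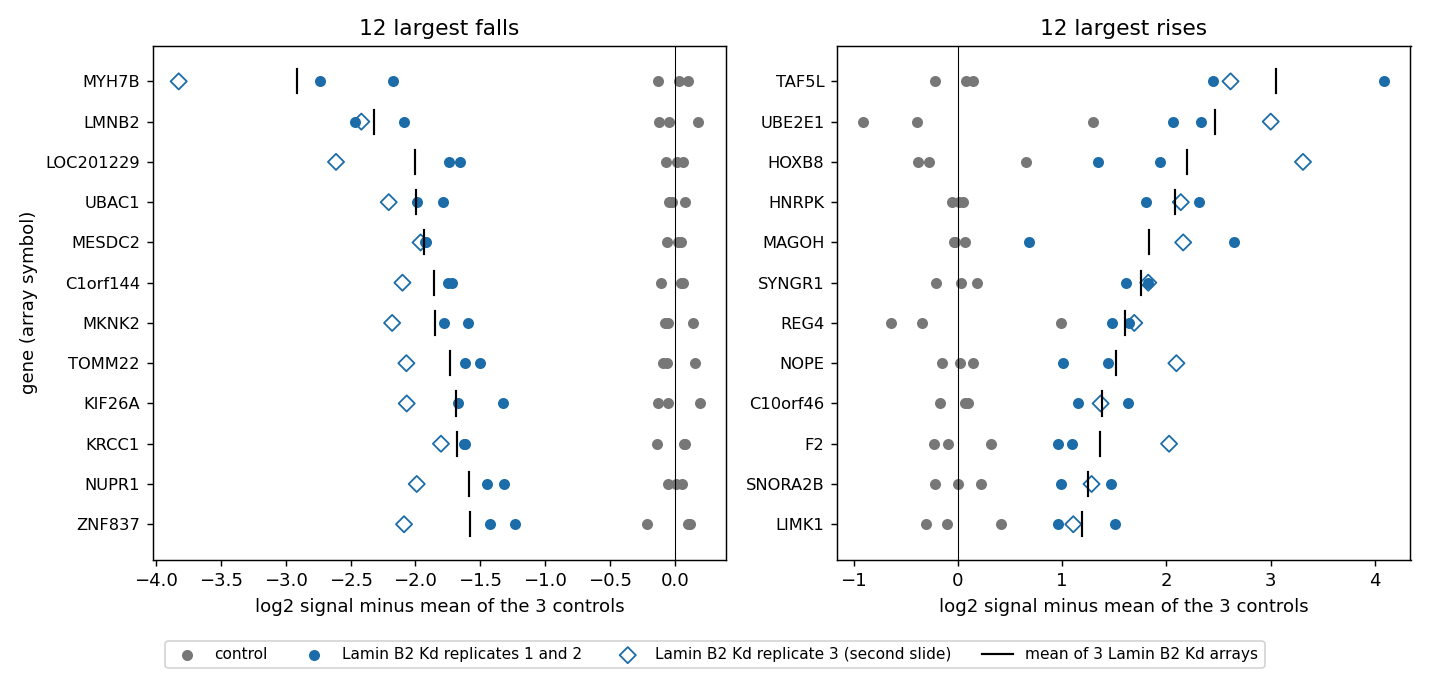
Log2 signal minus the mean of the 3 controls (horizontal axis) for the 12 largest falls (left) and the 12 largest rises (right), 1 point per array, with the mean of the 3 Lamin B2 Kd arrays as a vertical bar. Replicate 3 (diamond) was the lowest Lamin B2 Kd array for every fall shown except LMNB2, and the controls of UBE2E1 and REG4 spread more widely than those of the falling genes.

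MESDC2 (now MESD) showed the most uniform fall. MESD is an endoplasmic reticulum chaperone that the Wnt co-receptors LRP5 and LRP6 need to fold and reach the cell surface. Its level was 5.77, 5.85 and 5.88 in controls and 3.91, 3.91 and 3.87 in Lamin B2 Kd. The difference of −1.94 (SE 0.10, adjusted p = 0.000239) left 26.1% of the control signal, and replicate 3 lay with the other arrays. KRCC1, a protein of poorly known function with lysine-rich coiled coils, was at 2.88, 2.68 and 2.89 in controls and at 1.2, 1.19 and 1.01 in Lamin B2 Kd (−1.68, SE 0.14, adjusted p = 0.00263). UBAC1, a subunit of a ubiquitin ligase complex, fell from 6.18, 6.20 and 6.31 to 4.24, 4.44 and 4.02 (−1.99, SE 0.14, adjusted p = 0.000881). In each of these genes the highest Lamin B2 Kd array was more than 1 log2 unit below the lowest control.

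C1orf144 (now SZRD1), a small protein with an RNA-binding SUZ domain, fell from 7.45, 7.30 and 7.47 to 5.65, 5.69 and 5.30 (−1.86, adjusted p = 0.00128). Its other 3 probes differed by −0.85, −0.56 and −0.41, of which the first passed. MKNK2, a kinase that phosphorylates the translation factor eIF4E downstream of MAP kinases, fell by 1.85 on the probe the rule took and by 1.49 and 1.36 on the other probes, all of which passed. LMNB2, MESDC2, KRCC1, UBAC1, C1orf144 and MKNK2 were the 6 of 58 named genes that passed under each of the 18 alternatives tried on single genes. TOMM22, a receptor of the translocase that imports proteins into mitochondria, fell from 7.63, 7.66 and 7.87 to 6.21, 6.10 and 5.65 (−1.73, adjusted p = 0.00423), and NUPR1, a stress-induced nuclear protein, fell from 4.56, 4.46 and 4.52 to 3.07, 3.19 and 2.52 (−1.58, adjusted p = 0.0067). Neither passed with the spread taken from the 6 arrays compared. With that spread only 8 of the 24 genes named by the rule passed, namely the 6 above, HNRPK and SYNGR1.

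Among the other falls named by the rule, MYH7B, a myosin heavy chain gene of heart and skeletal muscle, had the largest difference (−2.91, SE 0.35, adjusted p = 0.00832), from 1.52, 1.68 and 1.75 to −1.09, −0.53 and −2.18. The lowest of these values was that of replicate 3, and without it the difference was −2.46. LOC201229 (now LYRM9), of a family of small mitochondrial proteins, fell by 2.01. KIF26A, an atypical kinesin, fell by 1.69, and the zinc finger gene ZNF837 by 1.58.

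Among the rises, TAF5L, a subunit of the SAGA and PCAF histone acetyltransferase complexes, was highest. Its level was −0.09, −0.15 and −0.46 in controls and 3.86, 2.21 and 2.38 in Lamin B2 Kd (3.05, SE 0.39, adjusted p = 0.00903). The other TAF5L probe, at a similar level in controls, differed by 0.15 (adjusted p = 0.42), so the probes of this gene disagree. MAGOH, a core protein of the exon junction complex that marks spliced mRNA, was at 4.87, 4.88 and 4.98 in controls and at 7.56, 5.60 and 7.07 in Lamin B2 Kd (1.83, SE 0.43, adjusted p = 0.0494). HNRPK (now HNRNPK), an RNA-binding protein, rose by 2.08 on 1 probe (adjusted p = 0.000881), while its brighter probe differed by −0.47 (adjusted p = 0.0807). Likewise C10orf46 (now CACUL1), a cullin-related cell cycle gene, rose by 1.38 on 1 probe, whereas the others differed by 0.20 and by −0.00. HNRPK and C10orf46 did not pass in the authors' table, whose rows can join several probes.

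UBE2E1, a ubiquitin-conjugating enzyme, rose by 2.47 (SE 0.55, adjusted p = 0.0431), with controls between −0.19 and 2.02 and Lamin B2 Kd between 2.79 and 3.72. HOXB8, a homeobox gene, rose by 2.20 (adjusted p = 0.0446). LIMK1, a kinase that inactivates the actin-severing protein cofilin, rose by 1.19 (adjusted p = 0.022) and SYNGR1, a synaptic vesicle membrane protein, by 1.75 on the dimmer of its probes (adjusted p = 0.0142). The brighter SYNGR1 probe differed by 0.75 (adjusted p = 0.324), and SYNGR1 did not pass in the authors' table or with the probes of a gene averaged. REG4, a lectin secreted by intestinal enteroendocrine and goblet cells, was at −1.58, −1.88 and −0.25 in controls and at 0.24, 0.41 and 0.45 in Lamin B2 Kd (1.60, SE 0.36, adjusted p = 0.0446). Control replicate 3 was closest to the Lamin B2 Kd arrays. The remaining rises were NOPE (now IGDCC4), an immunoglobulin superfamily receptor (1.51), F2, the gene of prothrombin (1.36), and the small nucleolar RNA SNORA2B (1.25, adjusted p = 0.00903). Without replicate 3, UBE2E1 (adjusted p = 0.0936), HOXB8 (0.0585), MAGOH (0.107), REG4 (0.0865), NOPE (0.0976) and F2 (0.0514) did not pass.

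The named genes were then compared directly between the knockdowns. At adjusted p under 0.05, all 12 falls were lower in Lamin B2 Kd than in Lamin A/C Kd, where 10.7% of all genes were lower. Of the 12 rises, 4 were higher than in Lamin A/C Kd, where 4.43% of all genes were higher. The genes had been chosen for their values on the same Lamin B2 Kd arrays, so neither count can be read against the share of all genes. These were SNORA2B (1.84 higher, adjusted p = 0.000399), REG4 (2.0, adjusted p = 0.00752), F2 (1.53, adjusted p = 0.0106) and SYNGR1 (0.96, adjusted p = 0.0397). For the other 8 rises no difference between the knockdowns was detected. TAF5L was at 3.43, 2.98 and 2.67 in Lamin A/C Kd (difference −0.21, adjusted p = 0.759), HNRPK at 7.52, 7.39 and 7.54 (−0.19, adjusted p = 0.412) and MAGOH at 7.31, 6.56 and 7.07 (−0.24, adjusted p = 0.752). NUPR1 and LOC201229 lay on opposite sides of the controls in the knockdowns, NUPR1 being at 6.28, 6.32 and 6.33 in Lamin A/C Kd, which made its difference between the knockdowns −3.38 (adjusted p = 6.53e-05).

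**Figure D2:**
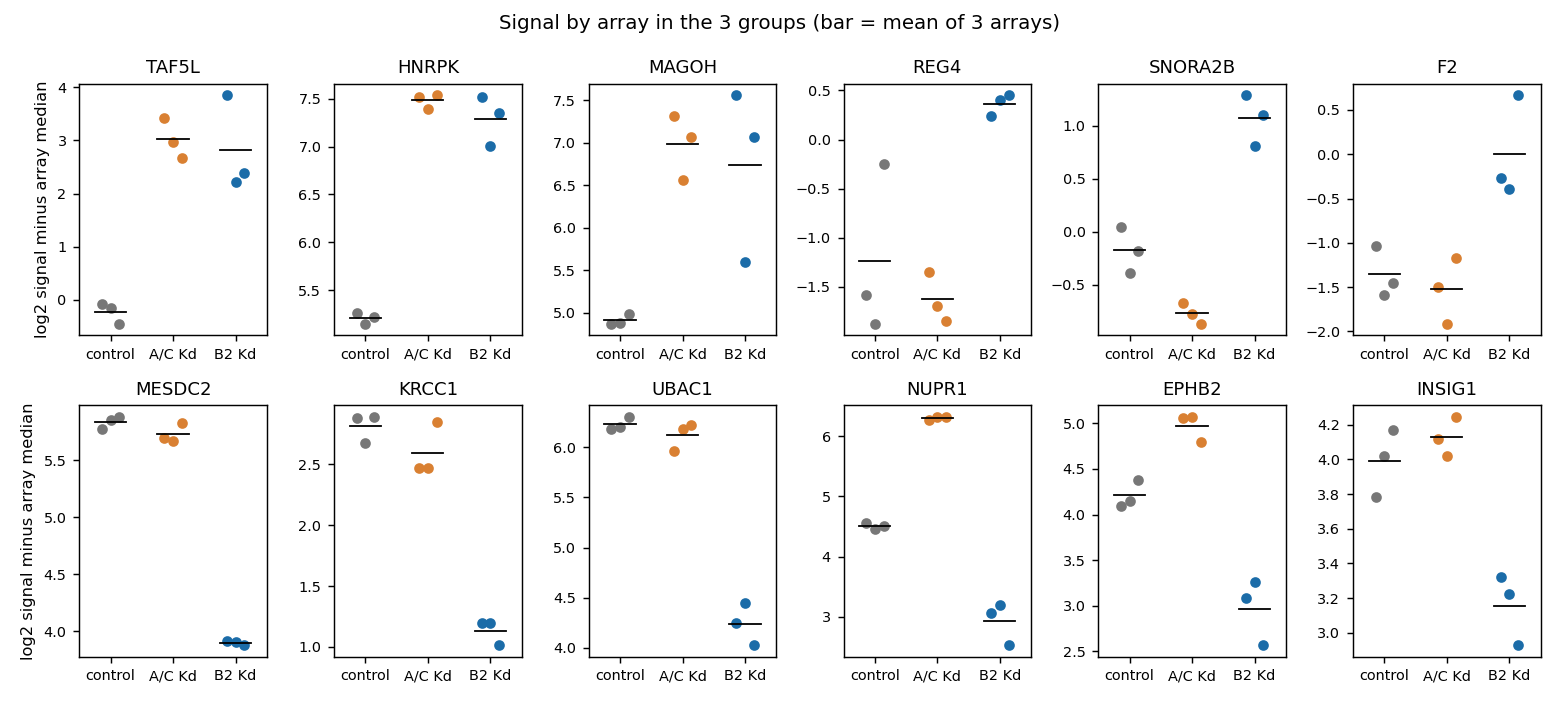
Log2 signal minus the array median (vertical axis) of 12 genes on the 3 control, 3 Lamin A/C Kd (A/C Kd) and 3 Lamin B2 Kd (B2 Kd) arrays, 1 point per array, with a bar at each mean. TAF5L, HNRPK and MAGOH are high in both knockdowns, whereas MESDC2, KRCC1 and UBAC1 are low in Lamin B2 Kd alone, and NUPR1 and EPHB2 are lowest in Lamin B2 Kd and highest in Lamin A/C Kd.

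Genes of the Wnt pathway were then considered as a group, because MESDC2 acts on Wnt co-receptors. In Wnt signalling, ligands bind Frizzled and LRP5 or LRP6, β-catenin escapes degradation by the APC and AXIN complex, and it drives target genes together with TCF and LEF factors. Of a list of 34 genes, made up of MESDC2 and of receptors, transducers and targets, 30 were measured, 6 fell (20.0% of those measured, against 3.97% of all genes) and 0 rose. Since MESDC2 prompted the list, the count without it is 5 of 29 (17.2%). As for the other lists, its members were chosen with earlier results of these data known. Neither share can therefore be read as a test against that of all genes. The same number, 6 with MESDC2, fell without replicate 3, and with the 75th percentile shift 6 fell and 3 rose. DKK1, DKK4, TCF7L1 and WIF1 were not tested, being too dim. The median difference of the list was −0.17, against −0.14 for all genes.

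Apart from MESDC2, the members that fell are known as targets of the pathway. EPHB2, a receptor that positions cells along the crypt, was at 4.10, 4.15 and 4.38 in controls and at 3.08, 3.26 and 2.56 in Lamin B2 Kd (−1.24, SE 0.19, adjusted p = 0.0142). ASCL2, a transcription factor of crypt stem cells, fell from 8.76, 8.81 and 8.80 to 8.07, 7.99 and 7.36 (−0.98, SE 0.18, adjusted p = 0.0245). The groups did not overlap, and replicate 3 was the lowest array in both genes. SP5, a zinc finger factor induced by β-catenin, fell from 5.45, 5.58 and 5.61 to 4.94, 4.90 and 4.51 (−0.77, adjusted p = 0.0345), and of its other probes one fell by 0.69 and the dimmest differed by 0.22. TNFRSF19 (TROY), a crypt stem cell receptor, fell by 0.70 (adjusted p = 0.0358), and LEF1, which binds β-catenin, fell from 7.78, 7.76 and 7.85 to 7.31, 7.30 and 7.04 (−0.58, adjusted p = 0.0327). Each of the 6 was also lower than in Lamin A/C Kd, the largest difference being that of EPHB2 (−2.01, adjusted p = 0.000486). EPHB2 had also risen in Lamin A/C Kd against control (0.77, adjusted p = 0.037). The 6 had been chosen for low values on the same Lamin B2 Kd arrays, so this gives no separate support. Of all 30 measured members, 8 were lower and 1 higher than in Lamin A/C Kd, where 10.7% and 4.43% of all genes were.

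Other well-known targets did not pass. AXIN2, the usual reporter of the pathway, was at 7.95, 8.15 and 8.05 in controls and 7.70, 7.88 and 7.50 in Lamin B2 Kd (−0.36, adjusted p = 0.141). LGR5, a stem cell receptor, differed by −0.50 (adjusted p = 0.25), the cyclin CCND1 by 0.22 and CD44 by 0.24. Among the upstream members, LRP6 differed by −0.13, LRP5 by 0.18, CTNNB1, the gene of β-catenin, by −0.10 and APC by −0.13. LRP4, a related receptor (−0.64, adjusted p = 0.0546), and WLS, which carries Wnt ligands to the cell surface (−0.56, adjusted p = 0.0782), were just outside the threshold. The 6 calls depended on the controls and on the pooled spread, since without any 1 control array, or with the spread of the 6 arrays compared, only MESDC2 passed.

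Of the 5 targets that fell, 4 had a promoter in the RefSeq table of GRCh38.p14, and the 250 bases before the start site are shown for the 3 with the best-known Wnt response, to let the letters that TCF and LEF factors are known to bind be read in context. The motif searched was ATCAAAG on both strands, without overlap with another motif, and any match is in capitals. It occurs in 2.26% of the 35116 promoter windows of that length in the table.
SP5, chr2:170715087-170715336, plus strand: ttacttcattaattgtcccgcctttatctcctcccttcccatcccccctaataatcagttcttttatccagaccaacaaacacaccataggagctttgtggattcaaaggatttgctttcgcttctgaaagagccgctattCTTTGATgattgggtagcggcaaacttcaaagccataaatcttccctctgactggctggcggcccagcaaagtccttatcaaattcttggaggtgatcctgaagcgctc
EPHB2, chr1:22710588-22710837, plus strand: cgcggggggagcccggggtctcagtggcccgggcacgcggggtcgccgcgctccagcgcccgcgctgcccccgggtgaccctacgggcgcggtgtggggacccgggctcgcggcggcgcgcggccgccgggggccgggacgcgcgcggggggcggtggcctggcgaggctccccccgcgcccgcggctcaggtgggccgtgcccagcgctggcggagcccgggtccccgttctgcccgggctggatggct
LEF1, chr4:108166302-108166551, minus strand: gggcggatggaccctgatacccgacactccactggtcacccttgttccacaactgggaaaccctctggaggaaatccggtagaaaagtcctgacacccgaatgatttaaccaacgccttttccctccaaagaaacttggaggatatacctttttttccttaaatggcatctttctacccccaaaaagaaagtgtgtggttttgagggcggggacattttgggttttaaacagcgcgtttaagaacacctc
The SP5 window held 1 match, on the strand opposite to the gene and starting 109 bases before the start site. The windows of EPHB2, LEF1 and TNFRSF19, and that of MESDC2, held none, which says only that these letters are not in them.

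Genes of cholesterol synthesis and uptake were the list with the lowest median. Cells make cholesterol from acetyl-CoA through mevalonate and squalene, under control of SREBP2, which INSIG1, with SCAP, retains in the endoplasmic reticulum when sterols are plentiful. All 24 members were measured, 3 fell (12.5%, against 3.97% of all genes), 0 rose, and 4 fell without replicate 3. The list median was −0.51 against −0.14 for all genes, and −0.38 against −0.07 without replicate 3. The members are bright, and the median of genes in the same brightness bins was −0.20 on average. The list median was −0.42, −0.34 and −0.73 on Lamin B2 Kd replicates 1, 2 and 3.

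Among the members that fell, INSIG1 fell from 3.78, 4.02 and 4.17 to 3.32, 3.22 and 2.93 (−0.83, adjusted p = 0.024) and SQLE, which makes squalene epoxide, from 6.26, 6.17 and 6.53 to 5.67, 5.75 and 5.70 (−0.61, adjusted p = 0.0355). In both genes every Lamin B2 Kd array was below every control. Such separation was found for 19 of 24 members, against 27.4% of all genes. It was also found for 14 of 20 heterochromatin genes and 22 of 35 mitosis genes, so it was not particular to this list. Among the 19 were the synthesis enzymes FDPS (−0.51), FDFT1 (−0.45), LSS (−0.61) and DHCR7 (−0.50), none of which passed. CYP51A1 (−0.05) and MSMO1 (0.49) overlapped with controls. Against Lamin A/C Kd, 12 of 24 members were lower and 0 higher, where 10.7% of all genes were lower. The number that fell ranged from 0, without control replicate 1 or 3 or with the spread of the 6 arrays compared, to 14 with normexp background correction.

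**Figure D3:**
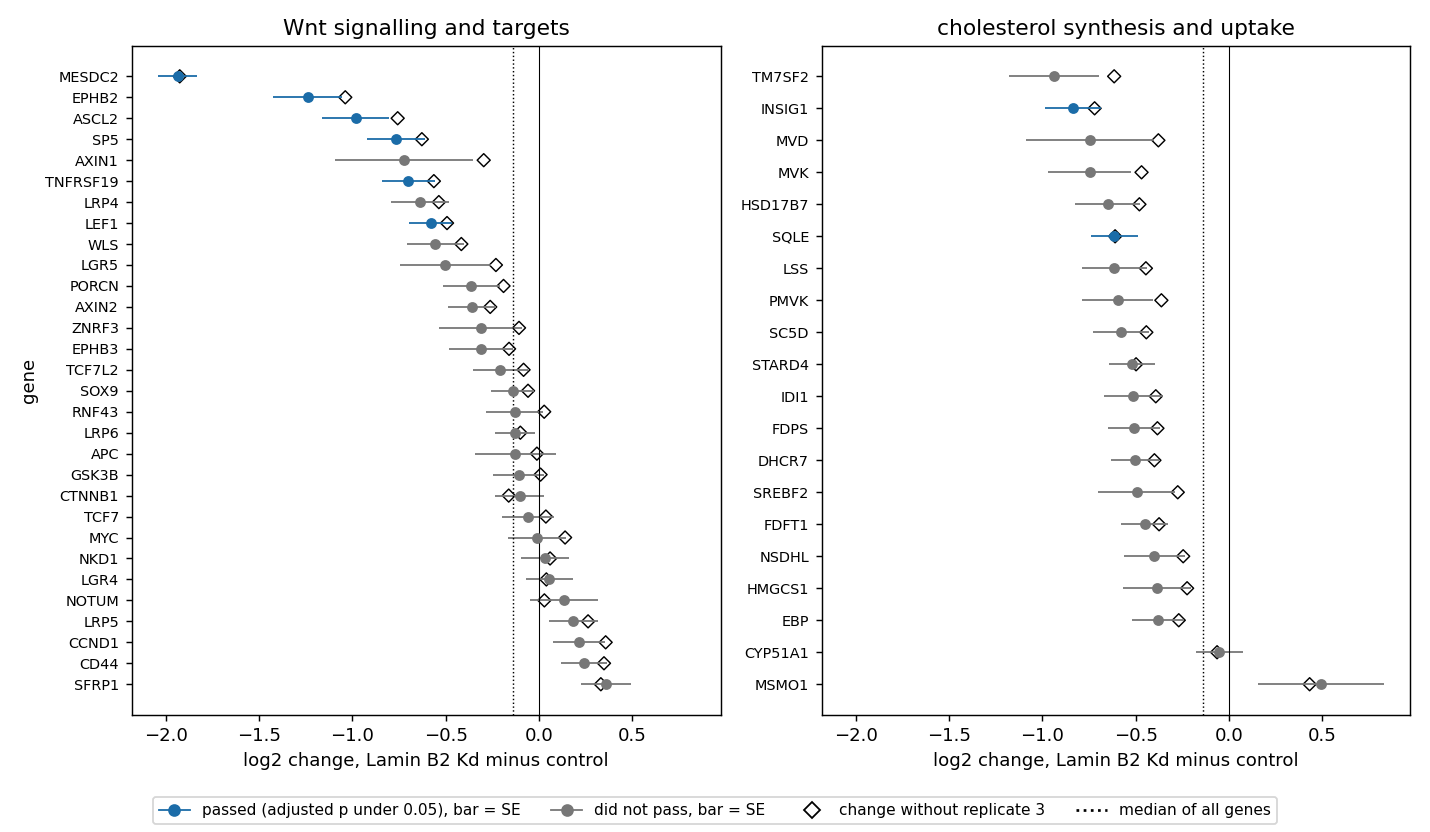
Log2 change, Lamin B2 Kd minus control (horizontal axis), with its SE, of the 30 measured members of the Wnt list (left) and 20 of the cholesterol list (right), colored where adjusted p was under 0.05. Open diamonds give the change without replicate 3 and the dotted line the median of all genes, −0.14. Most cholesterol genes lie left of that line, whereas the Wnt genes lie on both sides of it.

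In prostaglandin synthesis the differences of the 2 cyclooxygenases, which make prostaglandin H2 from arachidonic acid, had opposite signs. PTGS1, the constitutive enzyme, was at 0.43, 0.23 and 1.06 in controls and at −1.17, −0.65 and −1.09 in Lamin B2 Kd (−1.54, SE 0.24, adjusted p = 0.0146), and it was lower than in Lamin A/C Kd (−1.07, adjusted p = 0.0172). PTGS2, the inducible enzyme COX-2, was detected above background on 0 of 3 control and 3 of 3 Lamin B2 Kd arrays, which makes it at least 2.15-fold higher (adjusted p = 0.0139). PTGS2 entered the test only because it was detected on all 3 Lamin B2 Kd arrays. Its adjusted p, and its count below as the 1 member that rose, therefore give no separate support. PTGS2 did not differ detectably from Lamin A/C Kd (0.15, adjusted p = 0.752), where it was at −1.14, −0.97 and −1.45. TBXAS1, thromboxane synthase, fell by 0.73 (adjusted p = 0.041), although its dimmer probe differed by 0.32. Of 15 measured members of this list, 2 fell (13.3%, against 3.97% of all genes), 1 rose (6.67%, against 0.461%) and 12 did not pass, among them the prostaglandin E synthases PTGES (0.23) and PTGES2 (−0.61) and the receptors PTGER2 (−0.10) and PTGER4 (0.10).

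Among targets of NF-kB, the chemokine CXCL1 fell, from 7.29, 7.26 and 7.30 to 6.86, 6.67 and 6.87 (−0.48, adjusted p = 0.0465), 1 of 13 measured (7.69%, against 3.97% of all genes). CCL20 (0.57, adjusted p = 0.0583) and CXCL8 (1.01, adjusted p = 0.153) had higher levels on every Lamin B2 Kd array without passing. BIRC3, an inhibitor of apoptosis, rose by 0.50 (adjusted p = 0.0496), the 1 of 25 apoptosis genes that passed (4%, where 0.461% of all genes rose). Of 26 interferon-stimulated genes 2 fell (7.69%, against 3.97% of all genes), IFIT1 (−0.57, adjusted p = 0.0417) and MX1 (−0.53, adjusted p = 0.0459), both of which were also lower than in Lamin A/C Kd, and 0 rose. None of 24 p53 targets passed. Without replicate 3, 2 of them fell and 1 rose, where 4.07% and 0.628% of all genes did.

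Cell division was examined because Lamin B2 has been placed at the spindle. Of 35 genes of mitosis, 3 fell (8.57%, against 3.97% of all genes) and 0 rose. KIF2C, a kinesin that depolymerizes microtubules at centromeres and corrects wrong attachments, fell from 7.39, 7.42 and 7.40 to 6.47, 6.43 and 6.12 (−1.07, SE 0.12, adjusted p = 0.00686). INCENP, the scaffold of the Aurora B complex, was at 4.44, 4.54 and 4.51 in controls and at 3.85, 3.65 and 3.80 in Lamin B2 Kd (−0.73, adjusted p = 0.0335). SPC24, a subunit of the kinetochore Ndc80 complex, fell by 0.77 (adjusted p = 0.037). KIF2C and INCENP were lower than in Lamin A/C Kd as well, while SPC24 was not shown to differ (−0.40, adjusted p = 0.132). In the list as a whole, 2 members were lower and 2 higher than in Lamin A/C Kd, where 10.7% and 4.43% of all genes were. The median difference was 0.16, and 11 of the 35 had fallen in Lamin A/C Kd against the same controls (median −0.44). The share of all genes that fell in Lamin A/C Kd was not counted, so the 11 cannot be set against it. The median of the list was −0.29, and −0.17 without replicate 3. No gene of 21 for cohesin and condensin and none of 32 for DNA replication passed, and their medians were −0.18 and −0.30. In bulk RNA, fewer cells in mitosis and less of these transcripts per cell cannot be told apart.

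Of 20 genes of heterochromatin and DNA methylation, 1 fell (5%, against 3.97% of all genes) and 0 rose. It was the de novo methyltransferase DNMT3A, which went from 2.65, 2.67 and 2.76 to 1.99, 2.25 and 1.92 (−0.64, adjusted p = 0.0258). Its relative DNMT3B (−0.46, adjusted p = 0.0532) and UHRF1, which guides maintenance methylation (−0.49, adjusted p = 0.0606), were near the threshold. In the TFIID and SAGA list of 30 measured subunits, 1 fell (3.33%, against 3.97% of all genes) and 1, TAF5L, rose (3.33%, against 0.461%). TAF12 fell from 5.65, 5.55 and 5.54 to 4.90, 4.69 and 4.62 (−0.85, adjusted p = 0.00998). In the ubiquitin list of 36, 2 fell (5.56%, against 3.97% of all genes) and 1, UBE2E1, rose (2.78%, against 0.461%). Besides UBAC1, UBE2S fell by 1.15 (adjusted p = 0.0145). UBE2S extends ubiquitin chains for the anaphase-promoting complex. Its level went from 8.45, 8.48 and 8.59 to 7.48, 7.63 and 6.96. HOXB13, a posterior HOX gene expressed in the distal colon, fell by 1.11 on its brightest probe (adjusted p = 0.0432) and differed by −0.25 on another. Of 25 measured HOX genes it was the 1 that fell (4%, against 3.97% of all genes). HOXB8 was the 1 that rose (4%, against 0.461%).

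Few members of the metabolic and stress lists passed. PFKL, the liver type of phosphofructokinase, fell from 3.82, 3.56 and 3.74 to 2.49, 2.97 and 2.52 (−1.05, adjusted p = 0.0146), 1 of 24 genes of glycolysis and hypoxia (4.17%, against 3.97% of all genes). It was at 2.81, 3.1 and 2.84 in Lamin A/C Kd, from which no difference was detected (−0.26, adjusted p = 0.328). Among 25 NRF2-related genes, PIR, an iron-binding nuclear protein, fell by 0.82 (adjusted p = 0.0127) and the transporter ABCC3 by 0.74 (adjusted p = 0.0344), or 8% against 3.97% of all genes. Both were lower than in Lamin A/C Kd, as were 10 of the 25 members in all, where 10.7% of all genes were lower. In Lamin A/C Kd, however, 12 members had risen above the same controls, including PIR (0.54, adjusted p = 0.0257) and ABCC3 (0.96, adjusted p = 0.00738). The list median was 0.56 there and 0.00 in Lamin B2 Kd. The share of all genes that rose in Lamin A/C Kd was not counted. No gene of the unfolded protein response (24 measured) or of heat shock (17) passed. Without replicate 3, 1 gene of the unfolded protein response fell, where 4.07% of all genes did. Of the 29 lists, 13 had no member that passed, 10 had members that fell and none that rose, 2 had members that rose and none that fell, and 4 had both. Over all genes, 878 fell and 102 rose.

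**Figure D4:**
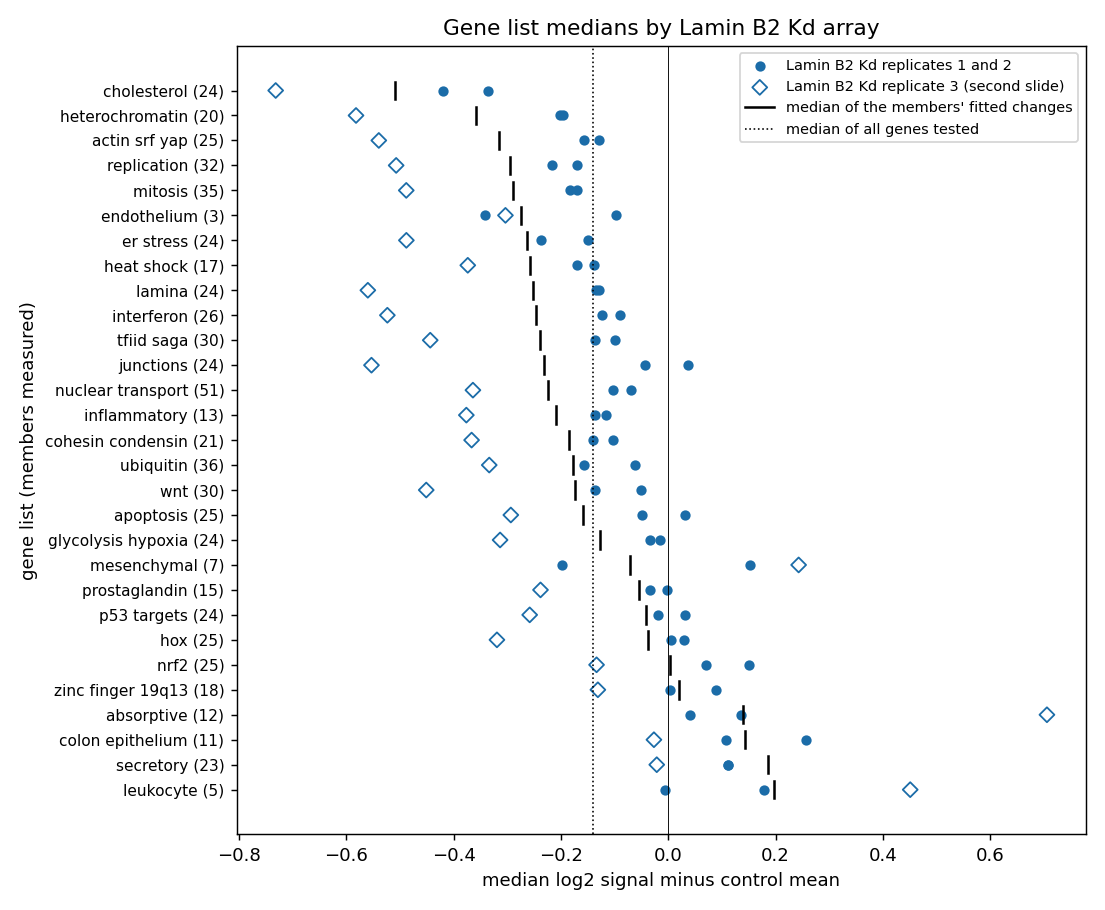
Median log2 signal minus control mean over the measured members of each of 29 gene lists, on Lamin B2 Kd replicates 1 and 2 (filled) and replicate 3 (diamond), with the median of the fitted changes as a bar and the median of all genes, −0.14, as a dotted line. Replicate 3 is lower than replicates 1 and 2 for most lists, and the cholesterol list has the lowest median.

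Among products of differentiated colon cells, REG4 was the 1 of 23 measured secretory cell genes that rose (4.35%, against 0.461% of all genes), and none fell. Of 12 measured products of absorptive cells none passed. None of 24 junction genes passed, the largest difference being that of the plakophilin PKP3 (−1.18, adjusted p = 0.0547, and −0.80 without replicate 3, adjusted p = 0.0299). Without replicate 3, 2 of the 24 fell, PKP3 included, where 4.07% of all genes did. Of 11 measured markers of colon epithelium, 1 fell (9.09%, against 3.97% of all genes). VIL1, the gene of the brush border protein villin, went from 3.07, 3.12 and 3.49 to 2.22, 2.49 and 1.80 (−1.06, adjusted p = 0.0335). It was not shown to differ from Lamin A/C Kd (−0.48, adjusted p = 0.172). Of the 12 epithelial markers on the array, 10 were well above background on all 6 arrays, among them EPCAM, KRT8, KRT18, CDH1 and CDX2, and CEACAM5 on 0. The log2 of the summed signal of these markers was 12.9 to 13.0 in controls and 12.8 to 13.2 in Lamin B2 Kd. No tested marker of mesenchyme (7), leukocytes (5) or endothelium (3) passed, and their sums overlapped between the groups, from 3.98 to 4.01 against 3.77 to 4.11 for mesenchyme, from 3.84 to 4.05 against 3.91 to 4.42 for leukocytes and from 1.46 to 1.57 against 1.18 to 1.62 for endothelium. Of 15 mesenchymal markers, 6 were well above background on all 6 arrays, including VIM and FN1, and 3 on none, including LUM. Of 10 leukocyte markers, 5 were, including CD14 and CD68, and HLA-DRA was so on none and PTPRC on 0 control arrays and 1 Lamin B2 Kd array. Of 6 endothelial markers, 3 were, including PECAM1 and VWF, and TEK was so on none and CDH5 on 0 control arrays and 1 Lamin B2 Kd array.

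Some genes were at the limit of detection. Some genes above background on 0 control arrays and all 3 Lamin B2 Kd arrays met the other conditions of the rule. These were a 2-fold difference with adjusted p under 0.05, no overlap, 2-fold without replicate 3 and a name found in RefSeq. The 5 of them with the largest fitted differences, an order that need not follow the bounds, were PKD1L2, of the polycystin family (at least 3.05-fold), FAM26D (now CALHM4), of a channel family (at least 2.20-fold), C1orf111 (now SPATA46, at least 2.0-fold), the protease ADAMTS4 (at least 1.76-fold) and C1orf92 (now LRRC71, at least 1.27-fold). In the other direction, under the same conditions, were the zinc finger factor ZNF143 (at least 2.16-fold lower), MAP2, a neuronal microtubule protein (at least 2.01-fold), C10orf75 (now OLMALINC, a long noncoding RNA, at least 2.01-fold), the guidance factor SEMA5A (at least 1.76-fold) and the transcription factor HLF (at least 1.56-fold). These dim probes entered the test only through the group where they were detected, so their passing gives no separate support. The ZNF143 value comes from a dim probe, and its brightest probe differed by 0.05 (adjusted p = 0.824). ZNF570 was above background on 0 of 3 control and 2 of 3 Lamin B2 Kd arrays and was not tested. Its level was −2.61, −3.14 and −3.51 in controls and −1.20, −2.26 and −1.14 in Lamin B2 Kd, so every Lamin B2 Kd array was higher. Of the 18 measured neighbours in its zinc finger cluster on chromosome 19, none passed, and their median was 0.02. MANSC1, a membrane protein gene, was at 0.26, −0.48 and −1.0 in controls and at 0.72, 0.54 and 1.02 in Lamin B2 Kd (1.17, adjusted p = 0.053), and the importin KPNA7 differed by −0.38 (adjusted p = 0.587) on its brighter probe. Its dimmer probe, above background on 0 control and 3 Lamin B2 Kd arrays, was at least 2.14-fold higher without passing (adjusted p = 0.0648).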

How the data were processed

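The authors hybridized Cy3-labelled RNA to single-color Agilent arrays and deposited the Feature Extraction output. Its processed signals are deposited intensities after background subtraction and detrending, and the deposited trend surface is a ratio. Software version 10.5 is given per the labels, and the file headers name a later one. For Lamin B2 Kd replicate 3 the multiplicative detrending had not been applied. A table by the authors, with log2 values at the 50th percentile shift and centered by row, served as an alternative. Of 50238 rows in that file, 29972 hold values and 11504 join several probes. The set numbers of its Lamin B2 Kd columns went against the arrays, so these columns were used by group only.

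Log2 intensities minus the array's 50th percentile were averaged over the spots of a probe. Spots well above background made up 66.6 to 74.1% on these 6 arrays, and none was saturated. The number of arrays limits precision. Tests took probes detected on the 3 arrays of at least 1 group, with at least 0.5 of the spots of a probe marked as well above background. limma 3.58.1 (R 4.3.3) was fitted over all 9 arrays. The brightest probe represented each gene. The rule for named genes also took the lamins, genes the paper names for these arrays or lists with primers, ACTB and GAPDH, 5 dim genes each way, and up to 4 passing members per gene list. For genes not above background in one group, the fold uses at least the lowest detected signal of each array. Of gene names, 69.3% matched RefSeq of GRCh38.p14. Members and lists were chosen with earlier results of these data known. The steps were tested on simulated data. Replicate numbers did not pair the arrays. Alternatives were other scalings, background correction, detection filters, probe summaries, folds, blocks, array weights and leaving out each array. Values of 4 members of the cholesterol list are not reported singly here, and its counts and medians include them.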

Additional observations from a re-analysis of the deposited data

How the results depend on the processing

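LMNB2 (−2.32) kept its direction and call under the alternatives run. Of 24 named genes, 16 differed from Lamin A/C Kd, and 15 or 16 did under the alternatives that could be run on that comparison, which leave out the fit of only the 6 arrays. The counts over all genes moved more. At 2-fold and p under 0.05, 450 genes were called, against 129 with normexp background correction, 921 without a filter on detection, 254 with slide as a block, 262 with array weights and 2021 at a fold of 1.5. With adjusted p there were 223, against 139 with quantile normalization, 109 with normexp, 128 without a filter, 10 with only the 6 arrays compared, 126 with slide as a block and 837 at a fold of 1.5. The share of called genes that rose was 40.4%, against 78.2% with the 75th percentile shift, 17.8% with normexp, 66.7% without a filter, 26.9% where all 6 arrays were above background, 55.5% with slide as a block, 54.2% with array weights and 24.1% at a fold of 1.5. Leaving out each array in turn gave 306 to 994 called, 36 to 546 with adjusted p and 36.7 to 63.1% that rose. The adjusted counts were 45, 91 and 36 when control replicate 1, 2 or 3 was dropped and 148 when Lamin B2 Kd replicate 3 was, and the called counts were 944, 994 and 306 when Lamin B2 Kd replicate 1, 2 or 3 was left out. Applying the missing detrending to replicate 3, chosen after seeing the data, gave 428 and 217. The cause of these moves was not tested.

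The replicate number as a block gave 463 called and 131 with adjusted p. Deviations of arrays with the same number correlated at −0.04, 0.04 and −0.05, so the numbers were not taken as pairs.

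KPNA7 (−0.38) changed sign in the authors' table (0.45), with slide as a block (0.23), with array weights (0.17) and with probes averaged (1.12), and it ranged from −0.70 to 0.23 over leaving out each array. GAPDH (0.02) was at −0.000127 with normexp, −0.00667 in the authors' table and −0.054 with probes averaged, and ranged from −0.042 to 0.071 over leaving out each array, while ACTB (0.03) ranged from −0.038 to 0.103. The dim ZNF143 probe (−2.04) was at 0.033 in the authors' table.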

Other observations

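TOMM22 prompted a look at other mitochondrial and housekeeping gene lists, chosen after the values were seen. NDUFB7, a subunit of respiratory complex I, was at 7.11, 7.04 and 7.21 in controls and at 5.81, 5.84 and 5.31 in Lamin B2 Kd (−1.47, SE 0.16, limma adjusted p = 0.0067), and it was lower than in Lamin A/C Kd as well (−1.48, adjusted p = 0.000787). It was the 1 of 85 respiratory chain genes that passed (1.18%, where 3.97% of all genes fell), and the list median was −0.22 against −0.14 for all genes. Of 18 genes of mitochondrial import, 2 fell (11.1%, against 3.97% of all genes). These were TOMM22, which prompted the list, and TIMM13, a chaperone of the intermembrane space (−0.92, adjusted p = 0.036). As TOMM22 is 1 of the 2, that share cannot be read as a test against that of all genes. The largest difference in that list was a higher level (2.53) that did not pass. Of 76 mitochondrial ribosomal proteins, MRPL45 fell (−0.82, adjusted p = 0.0164), or 1.32% against 3.97% of all genes. Of 38 proteasome genes, PSMA3 (−0.74, adjusted p = 0.0258) and PSMD3 (−0.85, adjusted p = 0.034) fell, or 5.26%. The shares of the respiratory chain and mitochondrial ribosome lists are below that of all genes, and that of the proteasome list is near it. PSMD3 did not pass without replicate 3 (adjusted p = 0.0513). None of 79 cytoplasmic ribosomal proteins passed.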
